A study of Homo sapiens with 6 samples.

Results

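10 genes of the cytosolic HSP70 chaperone system were followed in HEK293 cells with and without heat shock: HSPA1A, HSPA1B, HSPA1L, HSPA2, HSPA6, HSPA8 and HSPA14 of the HSP70 family, and HSPA4, HSPA4L and HSPH1 of the HSP110 family. They were chosen by name, as the loci of the authors' merged table on standard chromosomes whose gene column holds one of these symbols. This gave 12 merged loci of 115814, and 10 of the 24150 genes listed in the assemblies of the single libraries. HEK293 is a human embryonic kidney line that grows attached to the dish. Both groups were cultured at 37°C. The 3 heat shock samples were taken at passaging, moved into a tube and heated at 45°C in a water bath for 30 minutes, and the 3 control samples were not treated. Total RNA was depleted of ribosomal RNA and each sample gave 1 library. The labels call the samples triplicates and do not say that they were separate cultures, so the spread between libraries may be partly technical. Nor do they say whether control cells also spent time in a tube. No time between heating and lysis is labelled, and a figure legend of the study places the sequenced cells 30 minutes after the heat shock.

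HSP70 proteins hold unfolded stretches of other proteins and release them in a cycle of ATP binding and hydrolysis. J-domain proteins (HSP40) start hydrolysis, and nucleotide exchange factors, among them the HSP110 proteins, which are themselves distant relatives of HSP70, let ADP leave so that the client is released. Cells keep some members at a steady level, while others are known to be switched on by heat through HSF1, a transcription factor that binds heat shock elements, arrays of the 5-base unit NGAAN in alternating orientation.

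The promoters of 4 members are shown first, since they belong to the inducible pair, to the most abundant member and to a member known for its strict inducibility. The 250 bases before the start site are given for the HSPA1A and HSPA1B pair, for HSPA8 and for HSPA6, from RefSeq on GRCh38.p14. They lie at chr6:31815293-31815542 on the plus strand, chr6:31827488-31827737 on the plus strand, chr11:123062137-123062386 on the minus strand and chr1:161524290-161524539 on the plus strand. Capitals mark matches to a heat shock element of 2 or 3 units.
HSPA1A: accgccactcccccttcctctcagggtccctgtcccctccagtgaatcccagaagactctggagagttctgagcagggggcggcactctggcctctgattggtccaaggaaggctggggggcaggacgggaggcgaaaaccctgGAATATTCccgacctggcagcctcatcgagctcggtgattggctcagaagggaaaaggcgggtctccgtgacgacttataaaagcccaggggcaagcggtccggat
HSPA1B: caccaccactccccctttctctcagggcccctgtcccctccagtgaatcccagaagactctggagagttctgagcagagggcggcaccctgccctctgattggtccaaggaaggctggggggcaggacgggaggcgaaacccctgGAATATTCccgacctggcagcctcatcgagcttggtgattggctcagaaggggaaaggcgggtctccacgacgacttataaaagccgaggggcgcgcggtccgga
HSPA8: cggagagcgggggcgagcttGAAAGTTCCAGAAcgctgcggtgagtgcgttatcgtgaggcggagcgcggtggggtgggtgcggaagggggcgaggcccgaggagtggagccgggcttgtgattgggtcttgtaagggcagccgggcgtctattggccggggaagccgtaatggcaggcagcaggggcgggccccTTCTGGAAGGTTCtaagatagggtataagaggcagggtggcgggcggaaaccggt
HSPA6: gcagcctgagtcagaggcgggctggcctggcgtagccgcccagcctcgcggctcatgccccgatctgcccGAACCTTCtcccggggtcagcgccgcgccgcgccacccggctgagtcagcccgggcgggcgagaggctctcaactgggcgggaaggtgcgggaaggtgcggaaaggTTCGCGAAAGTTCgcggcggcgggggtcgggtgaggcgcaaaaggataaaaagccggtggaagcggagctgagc
The search for 2 units used GAA and TTC in either order with any 2 bases between them, the search for 3 units added a further GAA or TTC in turn at the same spacing, and TATAAA stood for the TATA box. Both strands were searched in windows from 250 bases before to 50 after the start. A match to 3 units always holds 2 overlapping matches to 2 units. Of all 35116 RefSeq promoter windows, 0.49% held 3 units, 13.5% held 2 units and 11.5% held TATAAA. Of the members, HSPA8 held a pair of 3-unit matches, at -230 to -218 and at -55 to -43, where -1 is the base before the start. HSPA6 held 1, at -74 to -62, and a separate match to 2 units at -180 to -173. HSPA1A and HSPA1B each held GAATATTC, at -106 to -99 and at -105 to -98, and TATAAA at -30 and -29. These 250 bases were 93.6% identical between the pair, over 251 aligned positions. HSPA1L is transcribed away from HSPA1A, its window overlaps that of HSPA1A, and its match to 2 units at -161 to -154 is the same GAATATTC. HSPA4L held 2 units in 1 of its 3 windows, and no match to a heat shock element was found in the windows of HSPA2, HSPA4 and HSPH1. HSPA14 had no entry in this table. A match is a description of letters and not a bound site, and no match says only that these letters are not in the window.

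**Figure D1:**
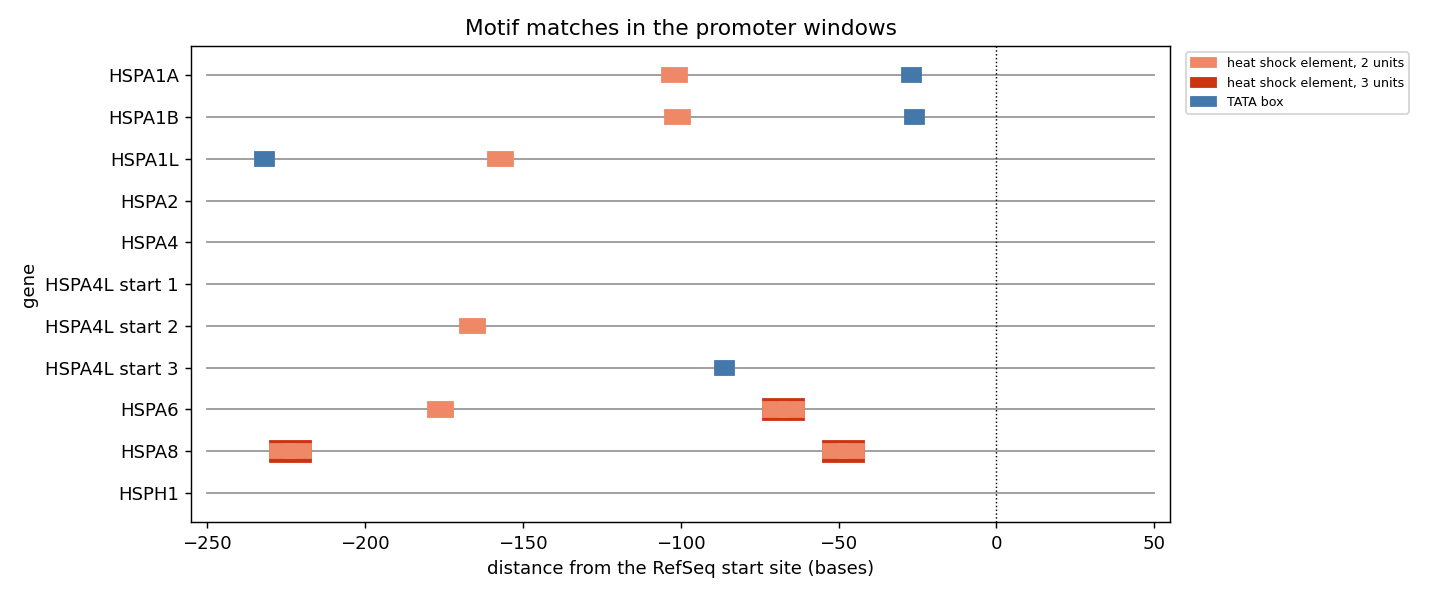
Positions of motif matches in the promoter windows of 9 members, with the distance from the RefSeq start site in bases on the horizontal axis and 1 line per window. Matches to 3 units, in dark red under the 2-unit matches they hold, are found in HSPA8 and HSPA6 alone, while HSPA1A and HSPA1B carry 1 match to 2 units and a TATA box at nearly the same places.

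The values are FPKM, fragments scaled to transcript length and library size, added up for each gene from its annotated transcripts and those that Cufflinks assembled with them. A factor common to abundant genes differed between the libraries. Over 998 genes above 10 FPKM in all 6 libraries, with the members and their pathway left out, this common factor was 0.947, 0.440 and 0.968 in control replicates 1 to 3 and 2.15, 2.34 and 0.492 in heat shock replicates 1 to 3. Control replicate 2 and heat shock replicate 3, the lowest of their groups, also held the most single-exon transcripts without a strand (194489 and 151889, against 17304 to 141632 in the others). Relative depth, as the ratio of coverage to FPKM, spanned 1 to 2.03. FPKM were therefore divided by the common factor and are called scaled FPKM, and values as deposited are given beside them. Of the markers of the line, VIM was at 85.3 to 929 FPKM as deposited, PAX2 at 0.320 to 4.26 and LHX1 at 0.234 to 1.69. Among markers of other cell types, PTPRC, CD3E and ALB stayed at or under 0.344 FPKM, PECAM1 at 0.248 to 0.883 and COL1A1 at 3.23 to 4.16. In bulk RNA, fewer cells with a transcript and less of it per cell cannot be told apart.

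In scaled FPKM, the heat shock libraries of the stress-inducible pair HSPA1A and HSPA1B and, by a smaller margin, of HSPA4L, HSPA8 and HSPH1 lay above the controls, with ratios of means of 2.30, 3.63, 1.57, 1.26 and 1.30, and none of these differences passed the adjusted test. The groups of the other 5 members overlapped. Of the 10 members, 8 had a mean of at least 1 scaled FPKM and were tested with limma among 13952 genes, and HSPA2 and HSPA6 were too low. No member passed an adjusted p of 0.05 (Benjamini-Hochberg), and neither did any other gene (0% called), while at an unadjusted p under 0.05 there were 94 higher and 343 lower genes. In the same fit 3 of the 8 members (HSPA1A, HSPA1B and HSPA8) had an unadjusted p under 0.05 and were higher, against 0.674% of all genes tested, and none was lower, against 2.46%. These counts over all genes depend on the scaling and on 1 library. As deposited, 269 genes were higher and 224 lower unadjusted. Without heat shock replicate 3, 143 were higher and 3056 lower unadjusted and 5 genes were called, none of them a member, while 3 members were higher and 1, HSPA1L, was lower unadjusted. In 5 of the 8, all heat shock libraries lay above all controls, against 1.78% of all genes, and in none did they all lie below, against 5.22%. These 5 were HSPA1A, HSPA1B, HSPA4L, HSPA8 and HSPH1, and the same 5 stood above after rescaling to TPM, but only HSPA1A and HSPA1B did so as deposited or with median-of-ratios factors over all genes. The median log2 fold change was 0.34 over the 8 members tested and -0.24 over all genes tested. As deposited, it was 1.16 over the 7 members tested and 0.45 over all genes.

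**Figure D2:**
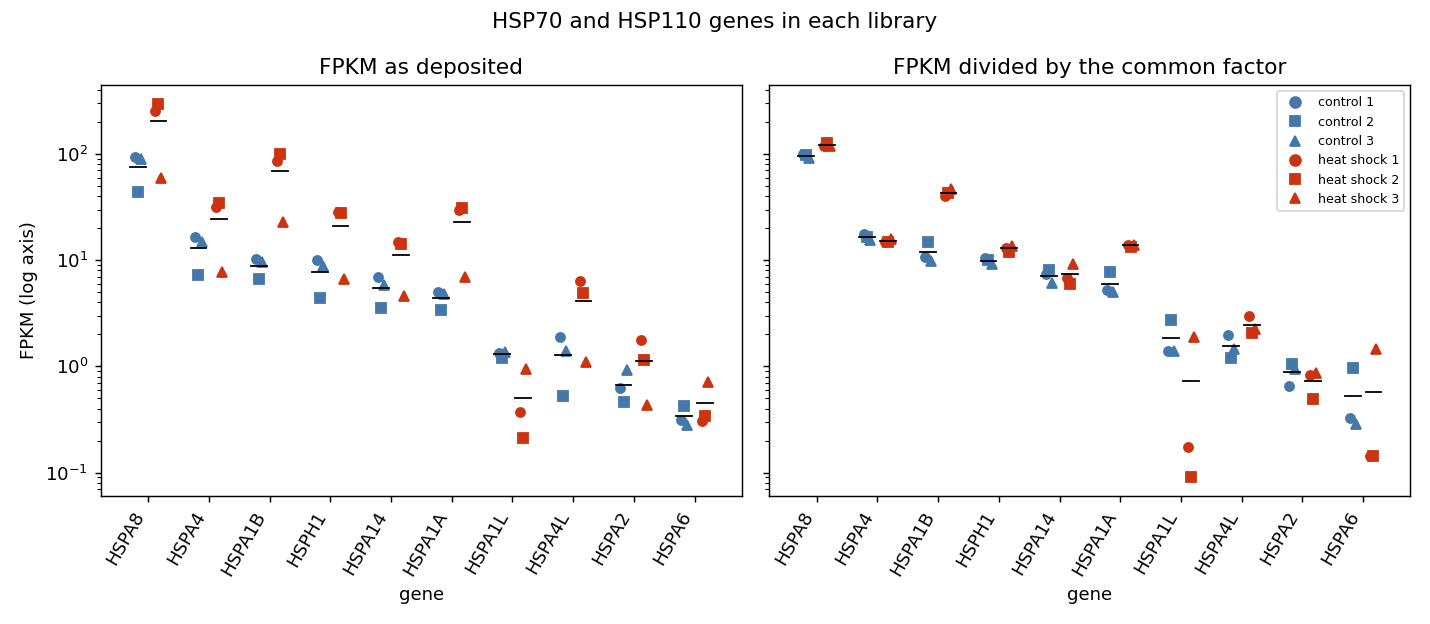
FPKM of the 10 members in each library on a log axis, as deposited on the left and divided by the common factor on the right, with controls in blue, heat shock in red, 1 symbol per replicate number and a bar at the mean. After scaling, the heat shock libraries of HSPA1B (40.2 to 46.5) and HSPA1A (13.4 to 14.0) lie close together and above the controls.

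HSPA1B (NM_005346) encodes the major heat-inducible HSP70. It lies at chr6:31795512-31798031 of hg19 on the plus strand and consists of 1 exon. Its scaled FPKM was 10.8, 15.0 and 9.86 in control replicates 1 to 3 and 40.2, 42.7 and 46.5 in heat shock replicates 1 to 3. The lowest heat shock library was thus far above the highest control. The means were 11.9 ± 2.74 and 43.1 ± 3.19 (SD, n = 3), a ratio of 3.63. The log2 fold change was 1.80 ± 0.19 (SE; limma, unadjusted p = 7.49e-05, adjusted p = 0.209), the fifth smallest p of the 13952 genes. As deposited, the values were 10.2, 6.59 and 9.55 FPKM in the controls against 86.5, 99.9 and 22.9 FPKM after heat shock, so that the groups were apart without scaling too (3.77% of the genes tested as deposited had all heat shock libraries above all controls). With annotated transcripts alone, the log2 fold change of HSPA1B was 1.49 ± 0.48 (SE; limma, unadjusted p = 0.0214, adjusted p = 0.971).

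HSPA1A (NM_005345), the neighbouring copy, encodes a virtually identical protein and lies at chr6:31783291-31785719 on the plus strand, also as 1 exon. HSPA1A had scaled FPKM of 5.27, 7.72 and 4.98 in the controls against 13.9, 13.4 and 14.0 after heat shock. All 3 heat shock libraries lay above the controls and within a narrow range. The means were 5.99 ± 1.50 and 13.8 ± 0.33 (SD, n = 3), a ratio of 2.30, and the log2 fold change was 1.10 ± 0.21 (SE; limma, unadjusted p = 0.00188, adjusted p = 0.908). As deposited, HSPA1A had 5.00, 3.39 and 4.82 FPKM in the controls against 29.9, 31.3 and 6.88 FPKM after heat shock. The pair stood apart from the controls, heat shock above, under each of the 4 scalings tried, with ratios of 2.30 to 5.16 for HSPA1A and 3.63 to 7.95 for HSPA1B.

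The mRNAs of the pair are 91.1% identical (2330 of 2557 aligned positions), and 1766 of the 2380 windows of 50 bases in HSPA1A (74.2%) also occur in HSPA1B. How the authors' counting split shared reads between them is not given in the sources used here, so the level of each copy and of their sum is uncertain. Summed over both, scaled FPKM was 16.0, 22.7 and 14.8 in the controls against 54.1, 56.1 and 60.5 after heat shock. The groups did not overlap, and the mean went from 17.9 ± 4.24 to 56.9 ± 3.28 (SD, n = 3), a ratio of 3.19. In the authors' merged table, HSPA1A has pooled values of 0.446 FPKM for control and 1.28 FPKM for heat shock, below every single library of the same group as deposited, while HSPA1B has 4.36 and 89.7 FPKM. For HSPA8 the pooled values are 98.5 and 568 FPKM, the latter above the highest heat shock library (298 FPKM), and how the table was scaled is not given in the sources used here.

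HSPA1L (NM_005527), an HSP70 best known from testis, lies beside the pair at chr6:31777396-31782835 on the minus strand with 2 exons. Scaled, it had 1.40, 2.73 and 1.41 in the controls against 0.174, 0.0907 and 1.90 in heat shock replicates 1 to 3. Heat shock replicate 3 lay within the control range and the other two below it. The log2 fold change was -0.85 ± 0.50 (SE; limma, adjusted p = 0.908). As deposited, all 3 heat shock libraries of HSPA1L lay below the controls (0.212 to 0.935 and 1.20 to 1.36 FPKM), as did those of 2.23% of the genes tested. The annotated transcript carried the whole value of HSPA1L in heat shock replicates 1 and 2, whereas single-exon transcripts assembled over the last exon and beyond it carried 81.5% to 100% in the controls and 100% in heat shock replicate 3. Without heat shock replicate 3 the log2 fold change of HSPA1L was -1.40 (limma, unadjusted p = 0.0126, adjusted p = 0.131).

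HSPA6 (NM_002155), known as an HSP70 that is nearly silent until stress, lies at chr1:161494036-161496687 on the plus strand with 1 exon. As deposited it had 0.311, 0.425 and 0.277 FPKM in the controls against 0.307, 0.337 and 0.710 FPKM in heat shock replicates 1 to 3. The groups overlapped, and in scaled FPKM (0.287 to 0.967 and 0.143 to 1.44) they did so as well. In the 375 olfactory receptor genes, a set chosen after values were seen because kidney cells should lack them, the 90th percentile was 0.112 to 0.433 FPKM, and HSPA6 was above it in 4 of 6 libraries. HSPA6 also shares 40.6% of its 50-base windows with the pseudogene HSPA7. HSPA6 was below the minimum for the test.

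HSPA2 (NM_021979), an HSP70 needed for sperm formation, lies at chr14:65007186-65009954 on the plus strand with 1 exon. Scaled FPKM of HSPA2 was 0.654, 1.05 and 0.954 in the controls against 0.824, 0.495 and 0.874 after heat shock, and the groups overlapped.

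HSPA8 (NM_006597 and NM_153201), the constitutive HSC70 that serves folding, clathrin uncoating and chaperone-mediated autophagy, lies at chr11:122928200-122932901 on the minus strand with 9 or 8 exons. It was the most abundant member in every library. Scaled, HSPA8 had 99.0, 98.9 and 92.5 in the controls against 119, 127 and 120 after heat shock, so that the groups did not overlap. The means were 96.8 ± 3.70 and 122 ± 4.73 (SD, n = 3), a ratio of 1.26, and the log2 fold change was 0.33 ± 0.09 (SE; limma, unadjusted p = 0.00844, adjusted p = 0.908). As deposited, HSPA8 had 93.8, 43.5 and 89.6 FPKM in the controls against 256, 298 and 59.0 FPKM after heat shock, and the groups overlapped. The difference of HSPA8 is small against the 5-fold range of the common factor, and the groups also overlapped with median-of-ratios factors over all genes. The shorter isoform NM_153201 took 25.9%, 23.8% and 38.8% of annotated HSPA8 FPKM in the controls against 40.5%, 34.5% and 0% in heat shock replicates 1 to 3, where the last is a listing at 0. In that library an assembled transcript, which also had 8 exons and spanned the annotated interval, held 18.9 FPKM, 32.0% of HSPA8.

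HSPA14 (NM_016299), which works at the ribosome with the J-domain protein DNAJC2, lies at chr10:14880261-14913740 on the plus strand with 14 exons. Scaled FPKM of HSPA14 was 7.33, 8.15 and 6.04 in the controls against 6.82, 6.02 and 9.29 after heat shock. The groups overlapped throughout, with a log2 fold change of 0.026 ± 0.23 (SE; limma, adjusted p = 0.981), whose sign turned under 4 of 15 alternatives. Assembled transcripts carried 52.7% of HSPA14 in control replicate 2 and 64.2% in heat shock replicate 3.

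The 3 HSP110 exchange factors differed in whether their groups overlapped. HSPH1 (NM_006644), the heat-inducible HSP105, lies at chr13:31710763-31736117 on the minus strand with 18 exons. Its scaled FPKM was 10.5, 10.0 and 9.16 in the controls against 13.2, 11.98 and 13.5 after heat shock, with no overlap. The means were 9.90 ± 0.69 and 12.9 ± 0.81 (SD, n = 3), a ratio of 1.30, and the log2 fold change was 0.35 ± 0.16 (SE; limma, unadjusted p = 0.0663, adjusted p = 0.908). As deposited the groups of HSPH1 overlapped (4.40 to 9.97 and 6.66 to 28.3 FPKM). In heat shock replicates 1 and 2, assembled transcripts that begin inside the gene, at 31728986 and 31729060, carried 45.1% and 71.0% of its FPKM. With annotated transcripts alone, the log2 fold change was -0.27.

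HSPA4 (NM_002154), the constitutive APG-2, lies at chr5:132387662-132440709 on the plus strand with 19 exons. HSPA4 had scaled FPKM of 17.6, 16.5 and 15.4 in the controls against 14.7, 14.8 and 15.8 after heat shock. The ranges overlapped, and the log2 fold change was -0.12 ± 0.14 (SE; limma, adjusted p = 0.908). The sign of HSPA4 depends on the scaling, since it was 0.71 as deposited and 0.29 with median-of-ratios factors over all genes. With annotated transcripts alone it was 0.38, and assembled transcripts carried 62.5% of HSPA4 in control replicate 2.

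HSPA4L (NM_014278), the related APG-1, lies at chr4:128703453-128754526 on the plus strand with 19 exons. Its scaled FPKM was 1.99, 1.20 and 1.45 in the controls against 2.97, 2.08 and 2.23 after heat shock. The lowest heat shock library was just above the highest control, with a log2 fold change of 0.43 ± 0.28 (SE; limma, adjusted p = 0.908), and as deposited the groups overlapped. Assembled transcripts carried 34.9% to 100% of its FPKM. In heat shock replicate 1, an assembled transcript of 5 exons and 826 bases held 3.76 of 6.39 FPKM as deposited. The annotated transcript of 3270 bases held 2.63 FPKM there, before division by the common factor of 2.15. The place of that library above the controls thus rested on the short transcript.

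**Figure D3:**
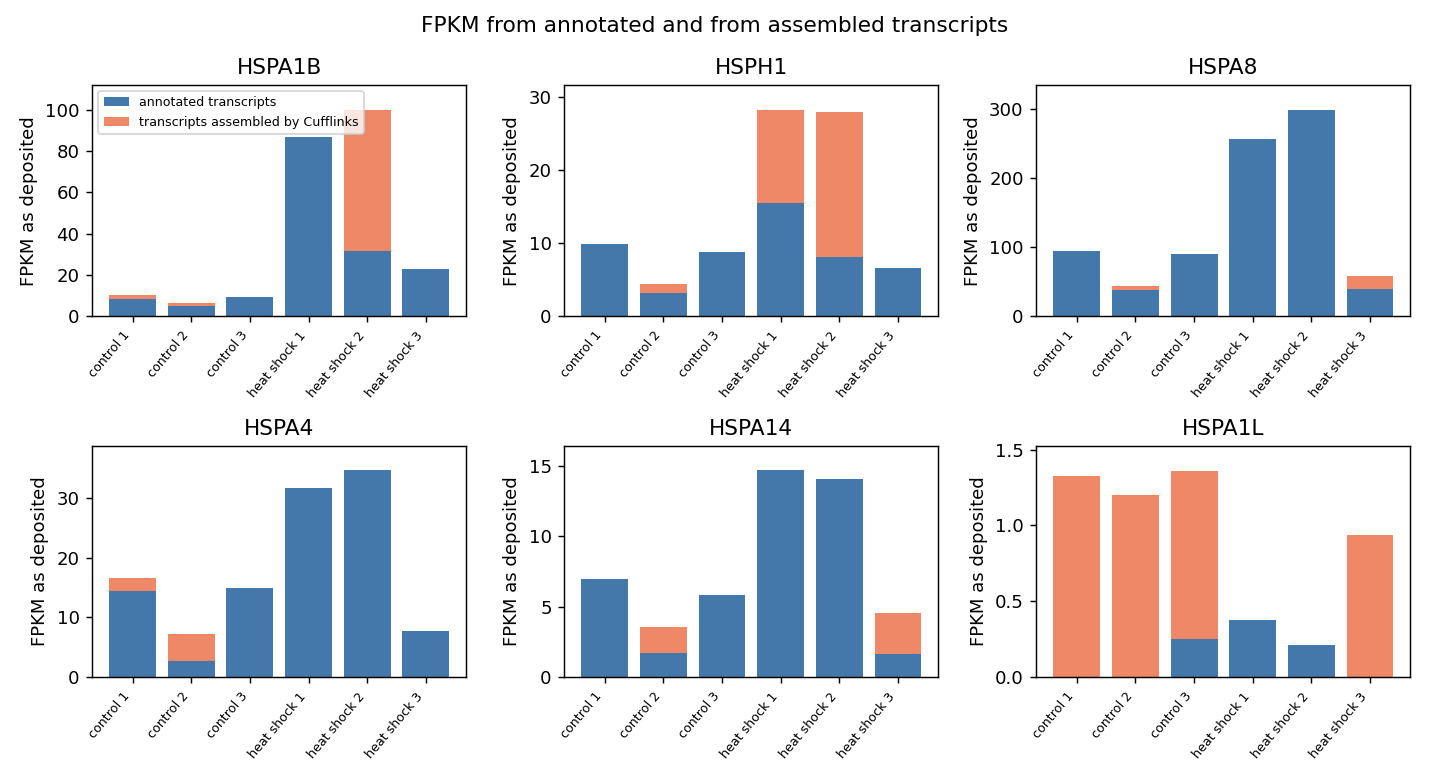
FPKM as deposited of 6 members in each library, split into annotated transcripts (blue) and transcripts assembled by Cufflinks (orange). Assembled transcripts carry most of HSPA1B and HSPH1 in heat shock replicate 2, and nearly all of HSPA1L in the controls and heat shock replicate 3. They also carry most of HSPA4 in control replicate 2 and of HSPA14 in control replicate 2 and heat shock replicate 3.

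In HSPA1B the assembled share was 68.1% in heat shock replicate 2. There a transcript of 2 exons with the same start, ending at 31798232, was listed beside the annotated one, which ends at 31798031. In control replicates 1 and 2, single-exon transcripts that ran past the annotated end of HSPA1B, to 31799919 and 31800117, held 15.4% and 25.9%. The annotated transcript was the whole value of HSPA1A, HSPA2 and HSPA6 in all 6 libraries.

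Ratios of 2 members within a library do not depend on its common factor. HSPA1B per HSPA8 was 0.109, 0.152 and 0.107 in the controls against 0.338, 0.335 and 0.389 after heat shock, 2.89 times higher on average. HSPA1A per HSPA8 was 0.0533, 0.0781 and 0.0538 in the controls against 0.117, 0.105 and 0.117 after heat shock, 1.83 times higher. Within the pair, HSPA1A per HSPA1B was 0.489, 0.515 and 0.505 in the controls against 0.346, 0.314 and 0.30 after heat shock. The balance of the summed values thus lay further toward HSPA1B in every heat shock library, within the limits of the shared sequence. In heat shock replicate 2 this rested on the assembled transcript of HSPA1B. The annotated values there were nearly equal, at 31.3 FPKM for HSPA1A and 31.8 FPKM for HSPA1B. HSPA8 per HSPA4 was 5.63, 5.98 and 6.01 in the controls against 8.09, 8.62 and 7.59 after heat shock. HSPH1 per HSPA4 was 0.599, 0.606 and 0.595 in the controls against 0.896, 0.810 and 0.857 after heat shock. The groups did not overlap in any of these 5 ratios, which use FPKM summed over annotated and assembled transcripts. With annotated transcripts alone this held for HSPA1A per HSPA8 only. HSPH1 and HSPA4 then had 3.148 and 2.724 FPKM in control replicate 2, against 8.135 and 34.61 FPKM in heat shock replicate 2. HSPA8 and HSPA4 had 37.6 and 2.724 FPKM in control replicate 2, against 40.08 and 7.767 FPKM in heat shock replicate 3. HSPA1B and HSPA8 had 4.88 and 37.6 FPKM in control replicate 2, against 31.84 and 298.4 FPKM in heat shock replicate 2. HSPA1A and HSPA1B had 3.391 and 4.88 FPKM in control replicate 2, against 31.34 and 31.84 FPKM in heat shock replicate 2. For each ratio of summed FPKM, an exact permutation test (two-sided) gave p = 0.1, the smallest that 3 libraries against 3 allow, and 0.1 after adjustment over the 5. These ratios have the same values as deposited and after scaling.

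**Figure D4:**
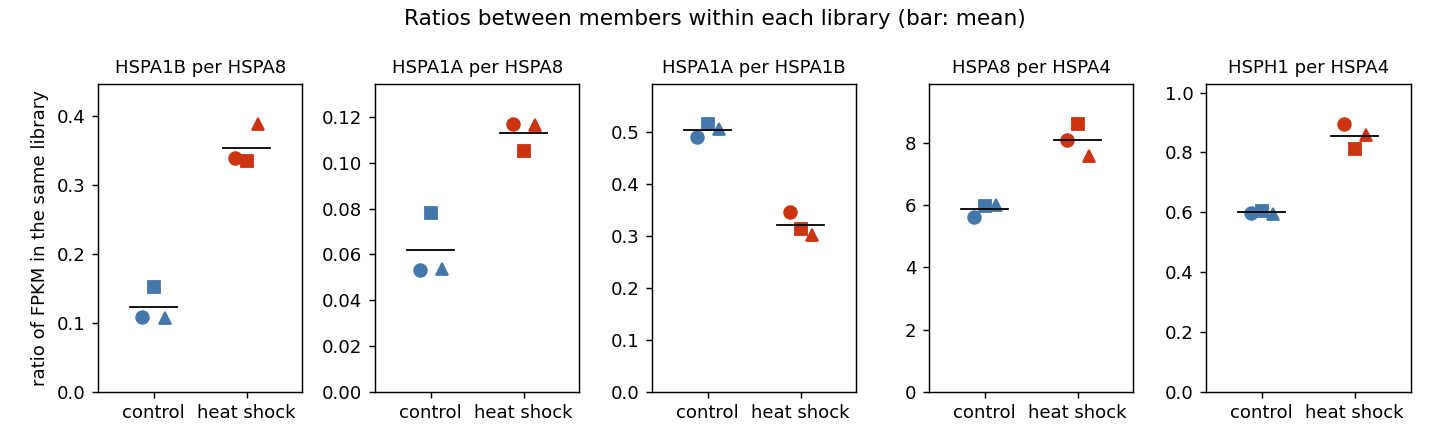
Ratios of FPKM between members of the same library, 1 panel per ratio, from annotated and assembled transcripts together. Controls are in blue and heat shock in red, with a bar at the mean and axes from 0. In each panel the 3 heat shock libraries lie apart from the 3 controls, below them for HSPA1A per HSPA1B and above them for the other 4 ratios.

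The order of the members by mean scaled FPKM changed most in the places of HSPA1A (6 to 4) and HSPA1L (7 to 9). In the controls it ran from HSPA8 over HSPA4, HSPA1B, HSPH1, HSPA14, HSPA1A, HSPA1L, HSPA4L and HSPA2 to HSPA6. The ranges of HSPA1B and HSPH1, of HSPA14 and HSPA1A, of HSPA1L and HSPA4L, and of HSPA2 and HSPA6 overlapped. After heat shock HSPA1B was the second and HSPA1A the fourth, with HSPA4 between them, followed by HSPH1, HSPA14, HSPA4L, HSPA2, HSPA1L and HSPA6. Here HSPA1A and HSPH1 overlapped, as did HSPA2 and HSPA1L, and HSPA1L and HSPA6. HSPA1A and HSPA1B together held 10.4%, 14.0% and 10.4% of the FPKM of all 10 members in the controls against 25.6%, 25.6% and 26.9% after heat shock, while HSPA8 held 60.9% to 65.1% and 53.1% to 58.2%. Summed over the 10 members, scaled FPKM was 155, 162 and 142 in the controls against 212, 219 and 225 after heat shock.

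The rest of the HSP70 cycle was read from a list of 32 genes in 5 classes, of which 30 were tested. None passed the adjusted test. At an unadjusted p under 0.05, 2 were higher and 0 lower, against 0.674% and 2.46% of all genes tested, and the median log2 fold change was -0.022. Without heat shock replicate 3, 1 of the 30 was higher and 4 lower unadjusted. Over all 13906 genes of that fit, 143 were higher and 3056 lower. The 2 higher genes of the full fit, DNAJB1 and DNAJA1, encode J-domain proteins. They were also the 2 of the 30 with all heat shock libraries above all controls, against 1.78% of all genes tested. DNAJB1, the main inducible HSP40, went from 9.41 ± 1.65 to 58.3 ± 9.86 scaled FPKM (SD, n = 3), with a log2 fold change of 2.51 ± 0.19 (SE; limma, unadjusted p = 1.32e-05, adjusted p = 0.154). Where a mean of 10 FPKM was required, its adjusted p from limma was 0.0490. With annotated transcripts alone the log2 fold change of DNAJB1 was -0.0090 ± 1.49 (SE). DNAJA1, named after its values were seen, a constitutive HSP40, went from 44.2 ± 4.70 to 58.9 ± 6.03 scaled FPKM (SD, n = 3), and its groups overlapped as deposited.

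Of the other 6 HSP70 superfamily genes, all tested, the greatest absolute values were those of HSPA12A, at -0.54 ± 0.66, and HSPA12B, at -0.27 ± 0.88 (log2 fold change ± SE). HSPA5 of the endoplasmic reticulum and HSPA9 of mitochondria were at -0.16 and -0.14. Of the 9 other exchange factors, HSPBP1 was at -0.89 ± 0.39 and SIL1, which serves HSPA5, at -0.58 ± 0.50. The J-domain protein DNAJA4 was at -1.02 ± 0.92. Of the genes that hand clients on, STIP1, the HOP adaptor between HSP70 and HSP90, had 20.8 ± 1.04 and 16.7 ± 2.11 scaled FPKM (SD, n = 3). Its unadjusted p was 0.0863 and its adjusted p 0.908 (limma). All heat shock libraries of STIP1 lay below the controls, as in 1 of the 30 listed genes tested, against 5.22% of all genes. HSP90AA1 was at 0.14 ± 0.10 (log2 fold change ± SE). The regulators HSF1 and HSF2 were at 0.19 ± 0.53 and 0.12 ± 0.23. STUB1, the ubiquitin ligase CHIP that binds HSP70, was listed at 0 in 5 of 6 libraries, and DNAJB4 was below the minimum.

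**Figure D5:**
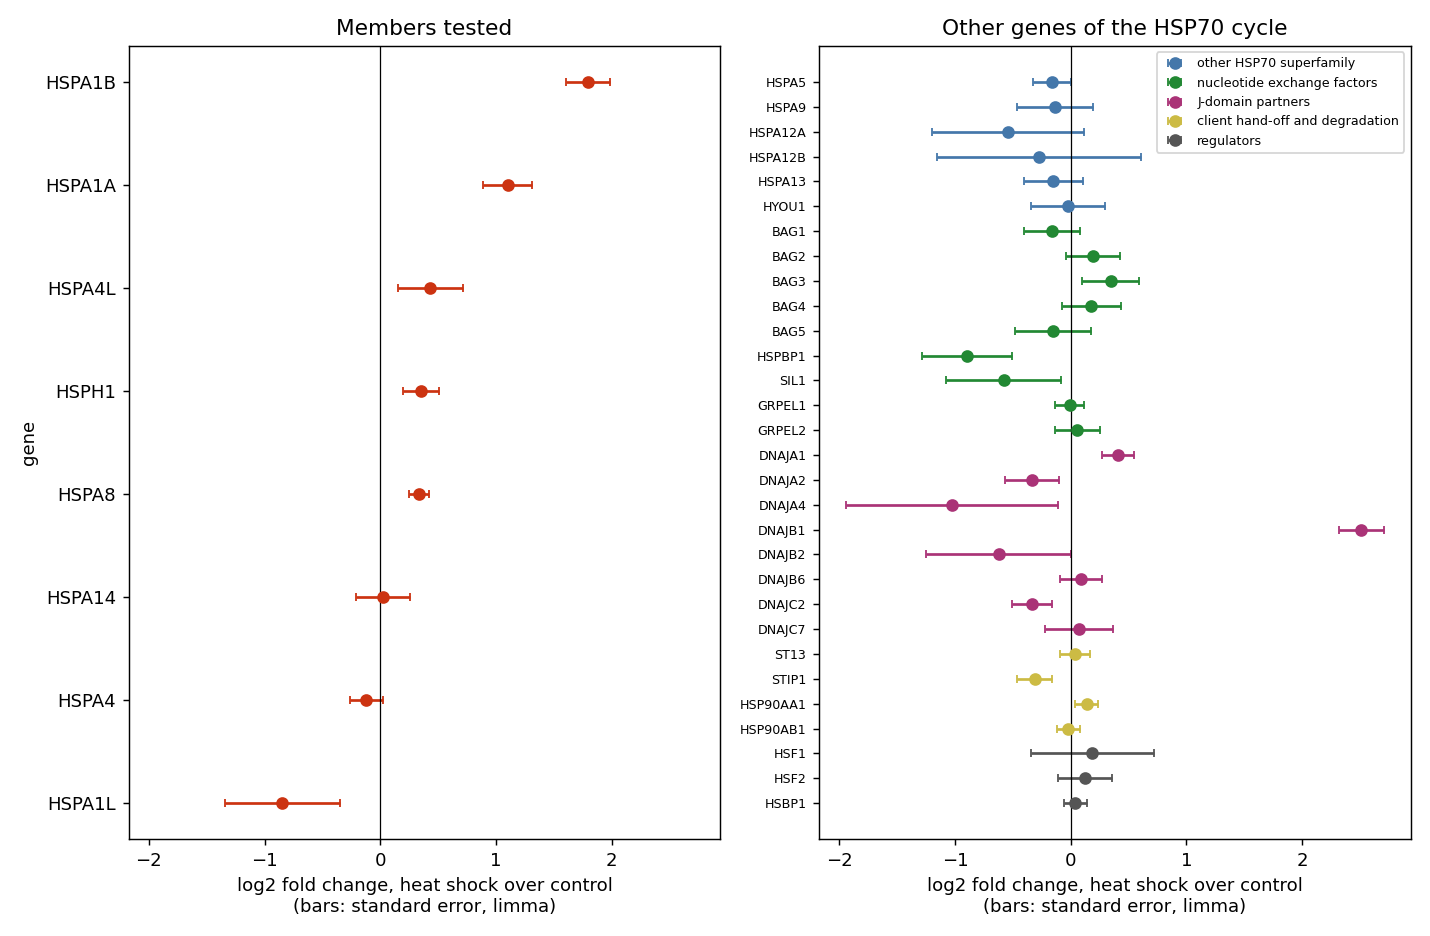
Log2 fold change of scaled FPKM, heat shock over control, with bars for the standard error from limma, for the 8 members tested (left) and the 30 tested genes of the HSP70 cycle, coloured by class (right). HSPA1B (1.80), HSPA1A (1.10) and DNAJB1 (2.51) lie furthest to the right, and no gene shown passed the adjusted test.

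Across the 6 libraries, the tested gene whose scaled level ran most like the sum of HSPA1A and HSPA1B was DNAJB1 (Pearson r = 0.985, n = 6), before ATP5F1E (0.976) and POLR3GL (0.968). For HSPA8 they were ATP5F1E (0.987), TBP (0.983) and POLR3GL (0.982). These points form 2 groups of 3 and share the scaling, so the values describe likeness only. ATP5F1E, a subunit of ATP synthase, had 154 ± 1.29 scaled FPKM in the controls and 171 ± 2.62 after heat shock (SD, n = 3).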

How the data were processed

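RNA of HEK293 cells was sequenced from 3 control and 3 heat shock samples, grouped by their titles. The authors trimmed reads with Trimmomatic 0.3.0 after FastQC 0.10.1, used TopHat2 for alignment to hg19, and assembled each library with Cufflinks 2.0.2. The deposited assemblies give an FPKM for each transcript, and the deposited series table gives pooled FPKM for each group, with the authors' fold changes, p-values and q-values, which were not used. No scaling between libraries is given in the sources used here, and the files hold no counts, so depth is known only in relative terms. Other numbers deposited in the assemblies, such as the confidence bounds, were not tested.

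FPKM were summed by gene, and of 41263 annotated transcripts 96.6% were named by RefSeq accession and 550 by gene name, and 872 kept the accession. Values were divided by the common factor and tested with limma 3.58.1 in R 4.3.3 (lmFit, eBayes with a trend) on log2(FPKM + 1), which understates the change of low genes, over genes with a mean of at least 1, with Benjamini-Hochberg adjustment. The test was tried on simulated data. Alternatives were other scalings, a pseudocount of 0.1, no minimum or 10 FPKM, annotated transcripts alone, no trend, a required 2-fold change, the replicate block and leaving out libraries.

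The members and lists were chosen with earlier results of these data known. Named were all members, any pathway gene called, the 2 tested genes of each class with the greatest absolute log2 fold change, and the 3 genes most like HSPA8 and the HSPA1A and HSPA1B sum; DNAJA1, HSPA5 and HSPA9 were added after their values were seen. Sequences came from RefSeq (GRCh38.p14), gene positions from the hg19 annotation in the assemblies, and mRNA identity from GRCh37.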

Additional observations from a re-analysis of the deposited data

How the results depend on the processing

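No member passed an adjusted p of 0.05 in limma under any of the 17 alternatives. Over all genes 0 were called (94 higher and 343 lower unadjusted), against 3 as deposited (269 higher and 224 lower unadjusted), 2 with median-of-ratios factors over all genes, 1 with a minimum of 10 FPKM, which was DNAJB1, the 1 pathway gene called in any setting, and 0 to 5 when single libraries were left out. The 5 were called without heat shock replicate 3 (143 higher and 3056 lower unadjusted) and included FBL, PCGF1, SNAR-E and SNORA11E; the 3 were SNAR-E, SCARNA11 and SNORA30, and the 2 were SNAR-E and SNORA30. Under the alternatives that tested it, the log2 fold change was positive for HSPA1A (1.00 to 1.90, adjusted p 0.0900 to 1.00), HSPA1B (1.49 to 2.63, adjusted p 0.0750 to 1.00), HSPA4L (0.30 to 1.03) and HSPA8 (0.23 to 1.20), and negative for HSPA1L (-1.98 to -0.54). These were 15 alternatives for HSPA1A, 16 for HSPA1B and HSPA8, 14 for HSPA4L and 13 for HSPA1L, which was under the minimum as deposited and with annotated transcripts alone. HSPA4 turned to 0.71 as deposited, 0.29 with median-of-ratios factors and 0.38 with annotated transcripts alone. The last also turned HSPA14 to -0.077 and HSPH1 to -0.27. HSPA14 ranged from -0.12 to 0.14 when single libraries were left out, with -0.077 without control replicate 3, -0.12 without heat shock replicate 3 and -0.012 without that library and control replicate 2. The cause of these turns was not tested.

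The groups share replicate numbers in the labels. Same-numbered libraries did not deviate together (correlations of -0.037, -0.073 and -0.13). Deviations from the mean of only 3 libraries are not independent, so this cannot settle whether the numbers mark pairs. With the replicate block 0 genes were called (89 higher and 221 lower unadjusted; in the pathway 2 and 1), and HSPA1B had an unadjusted p of 0.00084 in limma. Without counts, the depth behind single values is unknown, and 3 libraries a group limit the precision of each fold change.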
